A study of Mus musculus with 4 samples.

Results

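Leydig cell steroidogenesis genes are described here as a set of 10: Star, Cyp11a1, Cyp17a1, Hsd3b1, Hsd3b6, Hsd17b3, Insl3, Lhcgr, Srd5a1 and Tspo. Their probe sets were all those whose only gene symbol in the platform annotation was one of these names. The rule found 11 probe sets for 8 of the 10 genes, out of 12422 probe sets and 8251 named genes on the array. No probe set carried Lhcgr or Srd5a1 as its only symbol, so the receptor for luteinising hormone (LH) and steroid 5-alpha-reductase 1 were not analysed here. A further probe set with 2 symbols, 1 of them Insl3, was not used.

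Whole testes of hypogonadal (hpg) mice, which lack gonadotropin-releasing hormone, were measured on 4 one-colour arrays as total RNA. All the mice had first received testosterone propionate, an injectable ester of testosterone, and had then had it withdrawn. Group T+T holds 3 arrays, of which the label of replicate 1 alone describes renewed testosterone propionate, for 4 hours. The labels of T+T replicates 2 and 3 mention no treatment after withdrawal, and only their titles put them in T+T. Group T+O holds 1 array, labelled as withdrawn after 2 weeks of treatment. The first treatment is also given as 2 weeks for T+T replicates 2 and 3, and without a duration for T+T replicate 1. Dose, age, strain, length of withdrawal and whether an array stands for 1 animal or a pool are not given in the labels.

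Leydig cells lie between the seminiferous tubules and make the testosterone of the testis. LH binds its receptor on these cells, raises cyclic AMP and so drives cholesterol into mitochondria, where the first enzyme of the pathway cleaves its side chain. Further enzymes in the endoplasmic reticulum turn the product into testosterone. Since hpg mice release almost no LH, their Leydig cells stay poorly stimulated, and injected testosterone does not replace LH. The comparison asks whether the transcripts of this pathway differed between testes with renewed testosterone and testes left without it. In whole tissue, fewer Leydig cells and less RNA per Leydig cell cannot be told apart.

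The deposited values are linear signal intensities. Deposited medians were 29.3, 25.4 and 48.3 on T+T replicates 1, 2 and 3, against 37.5 on T+O. Arrays were therefore scaled to a common mean (taken without 2% of probe sets at each end), and differences are on the log2(scaled signal + 10) scale, which understates the change of dim probe sets. A probe set whose mean over the 4 arrays was at or below a scaled signal of 22.7 is called dim here. Between arrays, Pearson's r over the 7453 brighter probe sets ranged from 0.943 to 0.968. For the control gene Gapdh, the signal at its 3′ end divided by that at its 5′ end was 0.886, 0.837 and 0.809 on T+T replicates 1, 2 and 3, against 1.20 on T+O. For Actb the same ratio was 1.66, 1.40 and 1.17, against 1.53 on T+O, which lies within the T+T values. Their part in the results below was not tested.

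No Leydig cell probe set passed the test for a difference between T+T and T+O. Of the 11 probe sets, 7 lay above the dim level, for Star, Cyp11a1, Cyp17a1, Hsd3b1 (2 probe sets), Insl3 and Tspo, and 4 were dim. Of the genes that define Leydig cells, Cyp17a1 and Insl3 each had a probe set above the dim level on all 4 arrays. Star 161784_f_at was above that level on T+T replicate 3 only, and passed the filter through that array. The adult Leydig enzymes Hsd3b6 and Hsd17b3 had no probe set above the dim level. Of the 7 tested, 0 passed an adjusted p of 0.05 and 0 had an unadjusted p under 0.05 (limma with Benjamini-Hochberg adjustment, adjusted p between 0.745 and 0.992). Over all 7453 probe sets tested, 0.0268% passed the adjusted threshold and 7.8% had an unadjusted p under 0.05 in limma. With no filter, so that the 4 dim ones were tested too, 0 of 11 passed, as did 0% of all 12422, and the adjusted p lay between 0.784 and 0.993 in limma. A p that misses the threshold does not show equal levels, so the 95% interval of each difference is given below. An exact permutation test of 1 array against 3 cannot give a two-sided p below 0.25 and was not used.

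**Figure D1:**
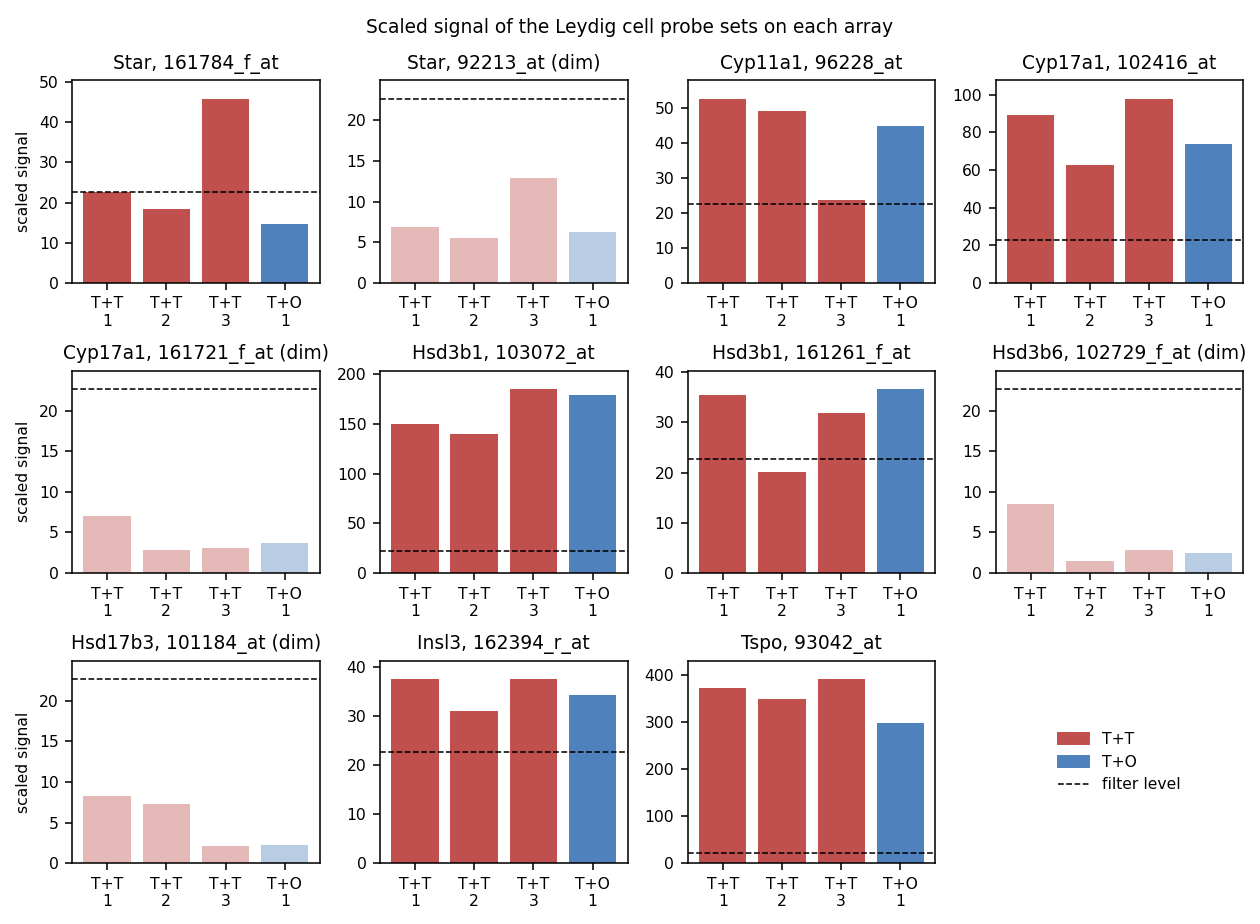
Scaled signal (vertical axis, linear, from 0, own range in each panel) of the 11 Leydig cell probe sets on T+T replicates 1, 2 and 3 (red) and T+O replicate 1 (blue). The dashed line is the dim level of 22.7, and the 4 dim probe sets are drawn pale. Star 161784_f_at and Star 92213_at both stand highest on T+T replicate 3, and Cyp11a1 stands lowest there.

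Star encodes the steroidogenic acute regulatory protein, which moves cholesterol to the inner mitochondrial membrane and is the step that LH acts on within minutes to hours. Its probe set 161784_f_at had scaled signals of 22.5, 18.4 and 45.9 on T+T replicates 1, 2 and 3, against 14.5 on T+O. All 3 T+T arrays lay above T+O, but T+T replicates 1 and 2 and T+O were under the dim level, so the probe set passed the filter through T+T replicate 3. The log2 difference was 0.60 with a 95% interval from -0.50 to 1.70 (limma, adjusted p = 0.827). It is the highest of the 11 differences at this offset with all arrays. Hsd17b3 exceeded it with an offset of 1 (0.92 against 0.84) and without T+T replicate 3 (0.53 against 0.31). With an offset of 35, the median of all scaled values, the Star difference was 0.34. The name of this probe set ends in f, a mark for sequence shared within a gene family.

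The second Star probe set, 92213_at, was dim, at 6.90, 5.57 and 12.9 on T+T replicates 1, 2 and 3 against 6.22 on T+O. Here T+O lay within the range of the T+T arrays, and the log2 difference was 0.17 with a 95% interval from -0.55 to 0.89 (limma fit with no filter, adjusted p = 0.941). Both Star probe sets were highest on T+T replicate 3. For 161784_f_at the signal there was 2.48 times the mean of the other 3 arrays, and for 92213_at it was 2.08 times. The spread of 161784_f_at within T+T was wide, with a log2 SD of 0.52 (n = 3). Only 7.39% of the 7453 probe sets had an SD at least as large, and the median SD over all 7453 was 0.20. The high Star signal thus belongs to 1 array, whose label does not mention renewed testosterone. On the array whose label does, T+T replicate 1, the 2 probe sets differed from T+O by 0.41 and 0.06 on the log2 scale.

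Tspo encodes the translocator protein of the outer mitochondrial membrane, which binds cholesterol and is made in many cell types besides Leydig cells. It had scaled signals of 371, 347 and 390.3 on T+T replicates 1, 2 and 3, against 298 on T+O. All 3 T+T arrays lay above T+O, and they were close to each other, with a mean of 369.7 ± 21.5 (SD, n = 3). The log2 difference was 0.30 with a 95% interval from -0.11 to 0.72 (limma, adjusted p = 0.745, the lowest of the 7). This separation came with scaling: the deposited signals were 322.8, 261.9 and 501 on T+T replicates 1, 2 and 3, against 325.3 on T+O. On the deposited values the log2 difference was 0.10, while the median of the 7450 probe sets above the filter was -0.16.

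Cyp11a1, the side-chain cleavage enzyme that turns cholesterol into pregnenolone, had 52.7, 49.2 and 23.8 on T+T replicates 1, 2 and 3, against 44.9 on T+O. T+T replicates 1 and 2 lay just above T+O, and T+T replicate 3 lay far below it, at 0.486 times the mean of the other 3 arrays. The log2 difference was -0.13 with a 95% interval from -1.07 to 0.80 (limma, adjusted p = 0.971). Without T+T replicate 3 it was 0.15. On T+T replicate 3, Star and Cyp11a1, consecutive steps of the pathway, therefore stood at opposite ends of their range. The log2 signal of that array minus the mean of the other T+T arrays was 0.88 for Star 161784_f_at and -0.85 for Cyp11a1.

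Hsd3b1 and Hsd3b6 encode 3-beta-hydroxysteroid dehydrogenases, which turn pregnenolone into progesterone. Hsd3b6 is the form known from adult mouse Leydig cells, and Hsd3b1 is found more widely in steroid-making tissue. Hsd3b1 103072_at had 149, 139.8 and 185 on T+T replicates 1, 2 and 3, against 179 on T+O. T+O lay inside the T+T range, and the log2 difference was -0.18 with a 95% interval from -0.69 to 0.34 (limma, adjusted p = 0.914). The other Hsd3b1 probe set, 161261_f_at, had 35.4, 20.03 and 31.8 on T+T replicates 1, 2 and 3, against 36.7 on T+O. All 3 T+T arrays lay below T+O, T+T replicate 1 by only -0.04 on the log2 scale. Its difference was -0.28 with a 95% interval from -1.14 to 0.58 (limma, adjusted p = 0.919). Both Hsd3b1 probe sets thus had the same sign, and neither passed. The f in the name of 161261_f_at marks sequence shared within a gene family, so its signal may not come from Hsd3b1 alone. With T+T replicates 2 and 3 taken as withdrawn, the signs differed, at -0.15 for 103072_at and 0.23 for 161261_f_at.

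Hsd3b6 102729_f_at was dim on every array, with 8.51, 1.46 and 2.88 on T+T replicates 1, 2 and 3, against 2.47 on T+O. The genes of this family are close copies of each other, and the f in the probe set's name marks shared sequence, so its signal cannot be assigned to Hsd3b6 alone. The log2 difference was 0.17 with a 95% interval from -0.53 to 0.86 (limma fit with no filter, adjusted p = 0.940). The family members Hsd3b2, Hsd3b3 and Hsd3b5 were dim as well.

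Cyp17a1 encodes the 17-alpha-hydroxylase and 17,20-lyase that makes androgen precursors, and its expression in Leydig cells depends on LH and cyclic AMP. Its bright probe set, 102416_at, had 89.4, 62.5 and 97.9 on T+T replicates 1, 2 and 3, against 73.6 on T+O. T+T replicates 1 and 3 lay above T+O and T+T replicate 2 below it. The log2 difference was 0.14 with a 95% interval from -0.52 to 0.79 (limma, adjusted p = 0.956). The other probe set, 161721_f_at, was dim, with 7.02, 2.79 and 3.12 on T+T replicates 1, 2 and 3, against 3.75 on T+O.

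Hsd17b3, which makes testosterone from androstenedione and is used as a sign of adult Leydig cells, was dim on every array. Its probe set 101184_at had 8.28, 7.30 and 2.10 on T+T replicates 1, 2 and 3, against 2.29 on T+O. T+T replicates 1 and 2 lay above T+O, and T+T replicate 3 lay just below it. The log2 difference was 0.35 with a 95% interval from -0.33 to 1.02 (limma fit with no filter, adjusted p = 0.865). It became 0.92 with an offset of 1, a size set by the offset because all 4 signals lay under the dim level.

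Insl3 encodes insulin-like peptide 3, a Leydig cell hormone that acts in descent of the testis and follows the maturity of the cells more than acute LH. Its probe set 162394_r_at had 37.5, 31.05 and 37.6 on T+T replicates 1, 2 and 3, against 34.3 on T+O. T+O lay between the T+T arrays, and the log2 difference, the closest to 0 of the 11, was 0.03 (95% interval from -0.69 to 0.75; limma, adjusted p = 0.992). The r in the name marks a probe set chosen with relaxed rules.

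**Figure D2:**
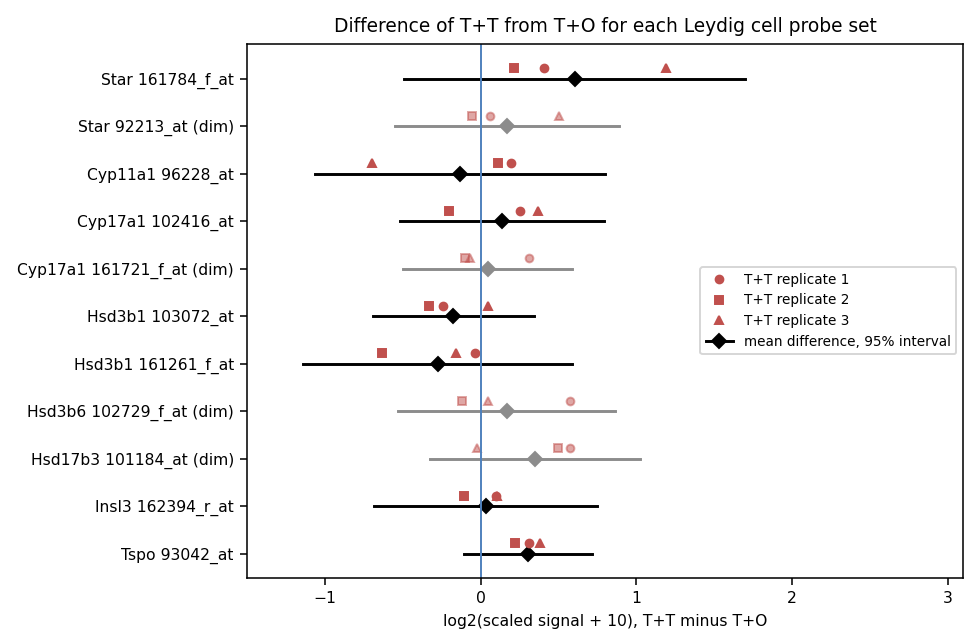
Difference of T+T from T+O on the log2(scaled signal + 10) scale (horizontal axis) for each Leydig cell probe set. Diamonds and lines are the mean difference and its 95% interval from limma (grey for dim probe sets, from the fit with no filter), and red symbols are the 3 T+T arrays minus T+O. Every interval spans 0, from Hsd3b1 161261_f_at at -0.28 to Star 161784_f_at at 0.60.

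The steroid genes are known targets of Nr5a1 (steroidogenic factor 1), so the promoters were searched for the letters of its binding site, CAAGGNC, on both strands over the 250 bases before the start. RefSeq windows of build GRCm38.p6 were used for Cyp11a1 (2 windows), Hsd3b1, Hsd3b6, Hsd17b3, Insl3, Lhcgr and Srd5a1, 8 in all. The promoters of Star, Cyp17a1 and Tspo were not searched. Only the Insl3 window held the motif, which is 1 of 8, against 15% of 32851 windows of all genes. TATAAA, searched the same way, was in 0 of 8 and in 12.4% of all windows. The 2 Insl3 matches, on the gene's strand (plus) at chr8:71689100-71689136 and chr8:71689180-71689216, are shown because Nr5a1 was itself measured on the arrays (below). Capitals mark the match, which ends 131 bases before the start in the first and 51 in the second.
Insl3 upstream match: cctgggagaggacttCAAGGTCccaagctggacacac
Insl3 start-proximal match: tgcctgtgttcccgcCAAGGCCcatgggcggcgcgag
A match is a description of letters and not a bound site.

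Taken as a list, the Leydig cell probe sets lay near all others. The median log2 difference was 0.14 over all 11 probe sets and 0.03 over all 12422. By array, the median of the 11 was 0.25 for T+T replicate 1, -0.10 for replicate 2 and 0.05 for replicate 3, each minus T+O. Of the 7 brighter probe sets, 3 had all T+T arrays on one side of T+O: Star 161784_f_at and Tspo above, and Hsd3b1 161261_f_at below. Over all brighter probe sets 53.3% did so (29.5% above and 23.7% below), a larger share than 3 of 7. With 10 added, a difference of 1.5-fold or more from T+O, in one direction on every T+T array, was seen for 0 of the 7, against 4.04% of all 7453 brighter probe sets. It was seen for 0 of all 11, against 4.21% of all 12422.

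T+T replicate 1 and T+O replicate 1 are the arrays whose title and label give the same arm. With 10 added to each signal, 0 of the 7 brighter probe sets and 0 of all 11 were at least 1.5-fold apart between them, against 17.8% of all 7453 and 18.9% of all 12422. Without the 10 added, 4 of the 11 exceeded 1.5-fold on T+T replicate 1: the dim Hsd17b3, Hsd3b6 and Cyp17a1 161721_f_at, and Star 161784_f_at with 22.5 against 14.5. The share of all probe sets without the 10 added was not counted, so this count cannot be set against 18.9%. The comparison is 1 array against 1, with no replicate check. On the log2(scaled signal + 10) scale, the highest differences among the brighter ones were 0.41 for Star 161784_f_at and 0.31 for Tspo, and the lowest was -0.24 for Hsd3b1 103072_at. If the labels of T+T replicates 2 and 3 are taken at their word, as withdrawn, so that T+T replicate 1 is set against the other 3 arrays, Star 161784_f_at was at -0.06, Cyp11a1 at 0.39 and Hsd3b1 161261_f_at at 0.23. Under that reading 0 of 7 passed (limma, lowest adjusted p = 0.948). The sign for Star, Cyp11a1 and this Hsd3b1 probe set therefore depends on how those 2 arrays are read.

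The genes around the pathway held no call either. In 7 lists of 110 partner genes, 81 had a probe set, 54 had one above the dim level, and 0 passed in either direction (limma; 1 had an unadjusted p under 0.05). Over all probe sets tested 0.0268% passed and 7.8% had an unadjusted p under 0.05, so the count says nothing particular about these genes. Of these 54, 30 lay above T+O and 24 below, with a median log2 difference of 0.07.

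LH signalling genes lay above T+O in 9 of 15 and below in 6, with a median of 0.14. Creb1, a transcription factor activated by cyclic AMP, had 47.6, 24.7 and 49.2 on T+T replicates 1, 2 and 3, against 23.6 on T+O (log2 difference 0.55). Lhb, the beta subunit of LH, which is normally made in the pituitary, had 257, 157 and 165 on T+T replicates 1, 2 and 3, against 259 on T+O (log2 difference -0.44). Neither passed (limma, adjusted p = 0.805 and 0.781).

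The list of transcription factors of the steroid genes also held Dhh and Ptch1, which are not transcription factors. With these included, 6 of 10 lay above T+O, with a median of 0.14. Nr5a1 itself was bright and steady, with 497, 473 and 557 on T+T replicates 1, 2 and 3, against 536 on T+O (log2 difference -0.08). Gata4, which acts with Nr5a1 in Leydig and Sertoli cells, had 123, 114 and 202 on T+T replicates 1, 2 and 3, against 87.9 on T+O. Its log2 difference of 0.63 was the highest of the list (limma, adjusted p = 0.715), and like Star it was highest on T+T replicate 3. Sp1, a general factor, had the lowest at -0.73, with 23.2, 13.0 and 27.6 against 40.7 on T+O (limma, adjusted p = 0.739). Its T+T mean of 21.3 was under the dim level, so it passed the filter through T+O.

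In the list for electron donors and mitochondrial cholesterol import, the genes above the dim level were Fdx1, Cyb5a, Dbi, Slc25a4, Stard3 and Scp2. Not all of them are proteins of the mitochondrion. Of these, 4 of 6 lay above T+O, with a median of 0.14. Scp2, a sterol carrier protein, had 43.4, 54.9 and 45.7 on T+T replicates 1, 2 and 3, against 25.97 on T+O, a log2 difference of 0.68 (limma, unadjusted p = 0.048, adjusted p = 0.640). Fdx1, the ferredoxin that passes electrons to Cyp11a1, was lowest, at -0.10, with 556, 493 and 557 on the T+T arrays against 574 on T+O.

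Cholesterol supply genes lay above T+O in 2 of 9 and below in 7, with a median of -0.07. Npc1, which releases cholesterol from lysosomes, was highest at 0.25, with 58.9, 58.6 and 67.2 on the T+T arrays against 50.3 on T+O. Abca1, the cholesterol exporter, was lowest at -0.94, with 14.5, 26.4 and 37.0 on the T+T arrays against 56.5 on T+O (limma, adjusted p = 0.674). All 3 T+T arrays lay below T+O, T+T replicate 1 lowest.

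Other steroid-converting enzymes lay above T+O in 4 of 5, with a median of 0.23. Hsd11b1, which regenerates active glucocorticoid and is known from Leydig cells, had 39.8, 18.6 and 27.7 on T+T replicates 1, 2 and 3, against 13.7 on T+O. Its log2 difference was 0.67 (limma, adjusted p = 0.781). It was under the dim level on T+O and T+T replicate 2, and passed the filter through T+T replicates 1 and 3. Hsd3b7, a bile acid enzyme, was lowest at -0.10, with 66.6, 59.6 and 65.1 on the T+T arrays against 69.1 on T+O. Of the steroid receptors and binding proteins only Shbg was above the dim level, at -0.01. Other interstitial markers lay above T+O in 5 of 8, with a median of 0.04, from Adh1 at -0.45 to Vcam1 at 0.27.

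**Figure D3:**
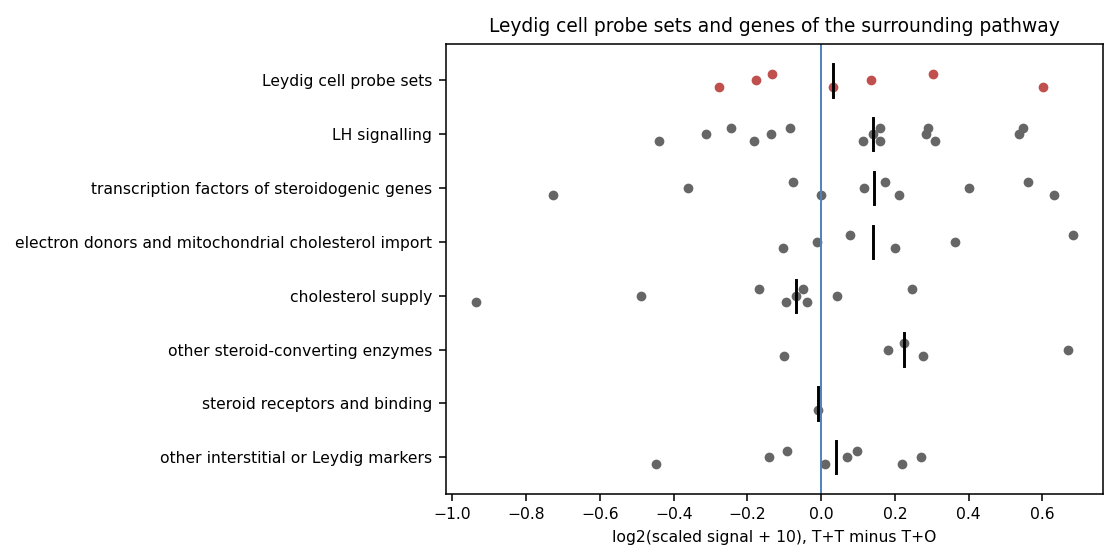
Difference of T+T from T+O on the log2(scaled signal + 10) scale (horizontal axis). Each red point is 1 of the 7 Leydig cell probe sets above the dim level, each grey point 1 gene of a partner list, and black bars are medians. The medians lie between -0.07 for cholesterol supply and 0.23 for other steroid-converting enzymes, and 0 of the points passed the test.

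Markers of other cells of the testis were read on the same arrays, as sums without a test, and their part in the values above was not tested. The 6 brighter Leydig cell genes, 1 probe set each, summed to 1.12, 1.01 and 1.21 times T+O on T+T replicates 1, 2 and 3. Tspo made up 50.3% of that sum, and without it the ratios were 1.02, 0.870 and 1.13. Over 8 other interstitial markers the T+T arrays stood at 1.04, 1.04 and 1.04 times T+O, and over 10 Sertoli cell markers at 1.01, 1.16 and 1.12 times. Over 7 macrophage markers they stood at 1.196, 1.17 and 1.23 times, and over 6 peritubular myoid and smooth muscle markers at 1.25, 1.22 and 1.15 times. Over 4 endothelial markers they stood at 1.51, 1.09 and 1.32 times, and over 8 spermatid markers at 1.21, 1.28 and 0.994 times. Without the brightest gene of each list, T+T replicate 2 stood at 0.979 times T+O for other interstitial markers and 0.896 times for endothelial ones. The Sertoli, macrophage and myoid sums stayed above T+O on all 3 T+T arrays.

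The sum of the 8 spermatogonia and spermatocyte markers stood at 1.08, 1.13 and 0.903 times T+O. Ldhc, the lactate dehydrogenase of germ cells, made up 76.9% of it, and without Ldhc the ratios were 0.856, 0.953 and 0.830, all below T+O. Sycp1, a protein of the synaptonemal complex of meiosis, had 13.5, 38.5 and 36.2 on T+T replicates 1, 2 and 3, against 389.9 on T+O. On each T+T array this shortfall was larger than that of the whole sum without Ldhc. That sum was 1530, 1704 and 1485 on T+T replicates 1, 2 and 3, against 1788 on T+O. The log2 difference of Sycp1 was -3.42 (limma, unadjusted p = 4.74e-05, adjusted p = 0.105). Dazl, an RNA-binding protein of germ cells, had 63.5, 79.2 and 103 against 166 on T+O, a log2 difference of -0.96 (limma, unadjusted p = 0.00912, adjusted p = 0.410). Of these 8 genes, 5 lay above T+O and 3 below. In limma, 3 had an unadjusted p under 0.05, against 7.8% of all probe sets, and 0 passed the adjusted threshold, against 0.0268%. The 3 were Sycp1 and Dazl, below T+O, and Ccna1, above it. Ccna1 had 423, 425 and 316 on T+T replicates 1, 2 and 3, against 256 on T+O (log2 difference 0.57). In the other marker lists, 5 of 7 macrophage genes, 4 of 6 myoid genes, 3 of 4 endothelial genes, 9 of 10 Sertoli genes and 6 of 8 spermatid genes lay above T+O, and 0 passed (limma). The Sertoli gene below T+O was Kitl, with 14.4, 12.6 and 17.4 on T+T replicates 1, 2 and 3, against 49.9 on T+O. Kitl was under the dim level on all 3 T+T arrays and passed the filter through T+O. Its log2 difference was -1.28 (limma, adjusted p = 0.445). The myoid gene Tagln had 117, 112 and 98.5 against 70.7 on T+O. Its log2 difference was 0.56 (limma, adjusted p = 0.595). No defining marker measured was at 0, but only 2 values in the data were 0. A signal above 0 therefore does not show that a marker was expressed. Of the defining markers measured, the Sertoli hormone Amh had its only probe set dim on all 4 arrays. Star, Cyp17a1 and Prm2 each had a probe set dim on all 4 arrays and another above the dim level by its mean. The adrenal cortex makes steroids too, and of its 5 listed markers Cyp21a1 and Mc2r had a probe set. Cyp11b1, Cyp11b2 and Akr1b7 had none. By their mean over the 4 arrays both probe sets were above the dim level, but Mc2r was under it on T+O and passed the filter through the T+T arrays. Cyp21a1 had 251, 230.2 and 247 on T+T replicates 1, 2 and 3, against 198 on T+O, and Mc2r had 39.3, 36.6 and 26.6 against 11.8. Neither passed (limma, adjusted p = 0.788 and 0.546).

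**Figure D4:**
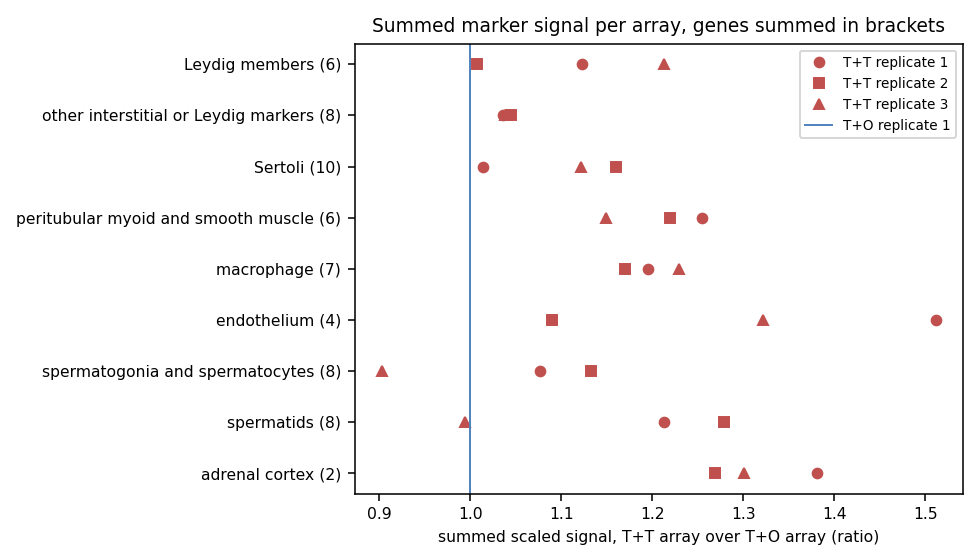
Summed scaled signal of each marker list on the 3 T+T arrays, divided by that on the T+O array (horizontal axis, ratio, line at 1 for T+O). The number of genes summed stands in brackets. All lists but those of germ cells lie above 1 on all 3 T+T arrays, the Leydig cell genes at 1.01 to 1.21. T+T replicate 3 is at 0.903 for early germ cells and 0.994 for spermatids. Without the brightest gene of each list (not drawn), T+T replicate 2 is below 1 for Leydig cell genes (0.870), other interstitial markers (0.979) and endothelium (0.896).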

How the data were processed

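Total RNA of 4 testis samples was measured on 1 array each. The deposited values are linear signal intensity for each probe set, and the software and settings the authors used are not given in the labels or the file. The probe set names show the array type, and there were no detection calls or batch labels. Groups came from the sample titles, and the third T+T replicate was numbered in accession order.

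The 66 control probe sets were left out and arrays were scaled to a common trimmed mean (factors 1.15, 1.33 and 0.779 for T+T replicates 1, 2 and 3, and 0.915 for T+O). An offset of 10, the 25th percentile, was added before log2. Probe sets with a mean above the 40th percentile (22.7) were tested with limma 3.58.1 in R 4.3.3 (lmFit, eBayes with an intensity trend, two-sided) and adjusted over 7453 probe sets by Benjamini-Hochberg. The fit had 2 residual and 5.74 prior degrees of freedom, and the spread of T+O, a single array, is taken from T+T. Nothing says that arrays came from separate animals, so p-values reflect spread between arrays that may be technical. With 4 arrays the precision is low. The procedure was tested on simulated data in which T+O had the same spread as T+T. That test could therefore not check the spread taken for T+O.

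Symbols came from the platform annotation, where 10833 probe sets had 1 symbol, 396 several and 1193 none. Of the first, 10817 were updated through a RefSeq table of assembly GRCm38.p6. Every probe set of the 10 genes is named. From each pathway list the highest and lowest gene are named, by the brightest probe set. Nr5a1, Cyp21a1, Mc2r, Ldhc, Sycp1, Dazl, Ccna1, Kitl and Tagln were chosen after their values were seen, as were the promoter motifs. The members and lists were chosen with earlier results of these data known. No genes were ranked by likeness of pattern, since 4 arrays are too few.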

Additional observations from a re-analysis of the deposited data

How the results depend on the processing

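The number of Leydig cell probe sets past the threshold was 0 under every alternative run, as was that of the partner lists. Only the values as deposited, with no scaling, were added as an alternative after the data were examined. Across all probe sets, the 2 calls became 0 with quantile scaling, no filter, no intensity trend or T+T replicates 2 and 3 taken as withdrawn. They became 6 with median scaling or an offset of 35, 5 on the values as deposited, and 1 to 63 when 1 T+T array was left out (63 without replicate 1, 12 without replicate 2, 1 without replicate 3). Between T+T replicate 1 and T+O, 1 of 7 probe sets, Star 161784_f_at, was 1.5-fold apart with an offset of 1. The share of all probe sets at that offset was not counted. The list's median of 0.14 ranged from -0.0038 to 0.28 when 1 T+T array was left out and was -0.013 on the values as deposited. Of 99 single differences under the alternatives that can move one, 12 turned sign and 87 kept it, and of 84 with a p, 0 passed. With T+T replicates 2 and 3 taken as withdrawn, Star 161784_f_at was -0.0596, Star 92213_at -0.0876, Cyp11a1 0.39 and Hsd3b1 161261_f_at 0.23. Leaving out 1 T+T array gave Cyp11a1 -0.296 to 0.15, Cyp17a1 161721_f_at -0.0864 to 0.12, Hsd3b6 -0.0374 to 0.31 and Insl3 -0.00467 to 0.101. On the values as deposited Cyp17a1 was -0.0421 (102416_at) and -0.0132 (161721_f_at) and Insl3 -0.124. The median of the 7450 probe sets above the filter was -0.16 there. The cause was not tested. No paired analysis was possible because T+O has a single array. Dim signals limit Hsd3b6, Hsd17b3 and the second probe sets of Star and Cyp17a1.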
